A study of Mus musculus with 31 samples.

Results

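The comparison described here is the liver response to PF-04287881, a candidate antibiotic, in MA/MyJ mice set against that in SM/J mice. For each gene, the difference between treated and vehicle animals in MA/MyJ was reduced by the same difference in SM/J. It used 16 of the 31 arrays of the series, chosen by strain label, with 4 animals in each of 4 groups. All were female inbred mice of 8 to 10 weeks at the start, with no transgene or other added allele. The MA/MyJ and SM/J treated groups received 600 mg/kg of PF-04287881 by mouth once a day for 7 days, and the MA/MyJ and SM/J vehicle groups received sterile water on the same schedule. RNA came from the left liver lobe, frozen 24 hours after the final dose. Per the labels, MA/MyJ is a strain in which the drug produced vacuolation of Kupffer cells, coded as phospholipidosis, and SM/J is not, and neither strain is coded for single cell necrosis. The coding is per strain and covers vehicle animals too, so vacuolation and every other difference between these strains cannot be told apart.

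Kupffer cells are the resident macrophages of the liver sinusoids, and they clear particles, dying cells and lipid from the blood. In phospholipidosis, a drug that gathers in lysosomes slows the breakdown of phospholipids, and cells that take up much membrane, macrophages above all, fill with lamellar bodies and appear vacuolated. Lysosomes hold acid hydrolases that break down proteins, sugars and lipids, and macrophages loaded with lipid commonly raise transcripts for lysosomal, lipid-handling and matrix-degrading proteins.

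Values are log2 units per probe set, so a difference of 1 is a 2-fold change. Among the 16 arrays they ran from 2.79 to 14.85, with array medians between 6.43 and 6.53, and the number of arrays limits the precision. The first principal component, with 43.9% of the variance, separated the strains, and the second, with 17.2%, separated treated from vehicle animals. SM/J treated animal 4 lay at -2.2 on the second component, closest to the vehicle animals, against -20.8 to -7.5 for the other SM/J treated animals. Markers of hepatocytes were the brightest of the cell type lists, and their mean level per array lay between 13.50 and 13.70 in all 4 groups. An array labelled WSB/EiJ treated animal 3 is in doubt from its strain-specific probe sets. It is not among the 16, and values of that strain are given with and without it.

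The drug effect differed between the strains for 130 of 12420 tested genes, or 1.05%, by limma's moderated test of the interaction at a Benjamini-Hochberg adjusted p under 0.05. It was higher in MA/MyJ for 79 genes (0.636%) and lower for 51 (0.411%). With each array centred on its median the split was 60 higher and 63 lower, so the balance between directions rests on the scaling. The differences were sizeable. The median was 0.72 among the genes called higher and -0.74 among those called lower, and 19 and 12 genes, respectively, differed by at least 1. The drug itself changed 1364 genes in MA/MyJ (11%), 924 up and 440 down, and 831 genes in SM/J (6.69%), 469 up and 362 down. Of these, 233 changed the same way in both strains, which is 17.1% of the MA/MyJ calls and 28% of the SM/J calls, and 7 changed in opposite directions. The responses of the 4 MA/MyJ treated animals all lay above those of the 4 SM/J treated animals for each of the 79 genes, and below for each of the 51. Over all tested genes that separation occurred in 10.9% and 7.88%. The 130 genes were called on these same responses, so their separation is a description. The count of 130 for the MA/MyJ drug effect minus SM/J drug effect depended on single animals. It was 49 to 72 without any one of MA/MyJ vehicle animals 1, 2 and 3, MA/MyJ treated animals 2 and 3, SM/J vehicle animals 2, 3 and 4, or SM/J treated animal 3, and 40 genes were called in each of the 16 fits that left out 1 animal.

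**Figure D1:**
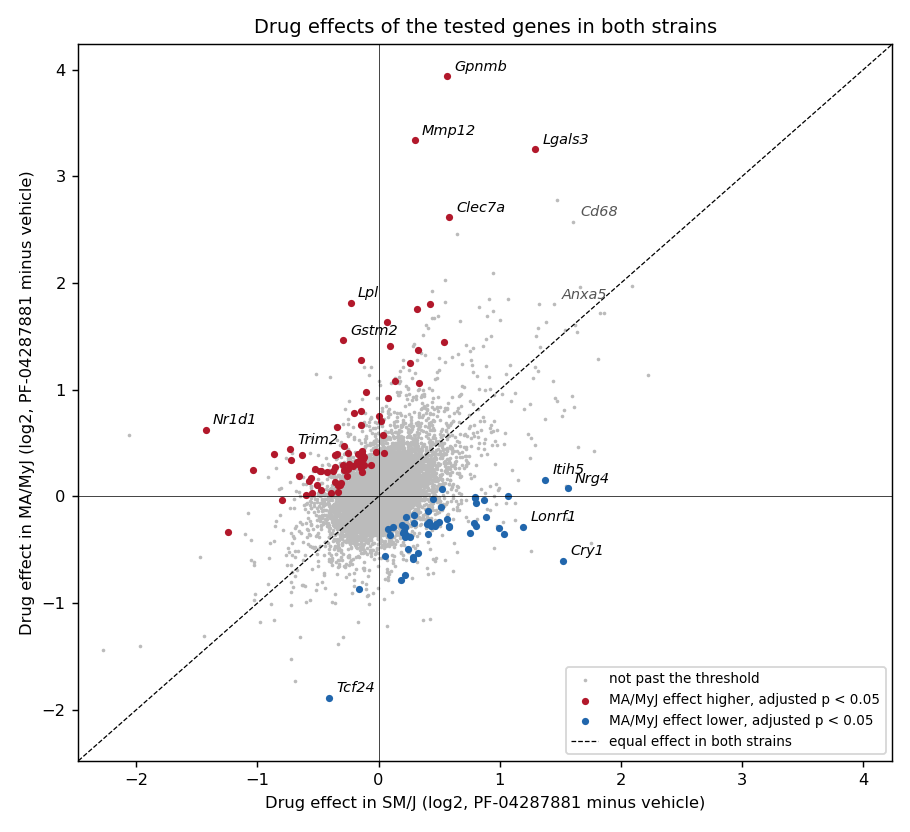
Drug effect in SM/J (x axis, log2) against drug effect in MA/MyJ (y axis, log2) for the 12420 tested genes, each point 1 gene. Red and blue points are the 79 and 51 genes whose effects differed, and they lie off the dashed line of equal effect, most of the red ones with a positive MA/MyJ effect and an SM/J effect near or below 0.

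The 130 genes fell into 4 patterns. In 65 genes the drug effect passed its own test in MA/MyJ alone, 46 of them called higher and 19 lower. In 56 genes it passed in SM/J alone, 26 called higher and 30 lower. In 7 genes it passed in both strains with opposite signs, and in Lgals3 and Hexa it passed in both with the same sign. Much of the contrast thus came from changes seen in the strain without vacuolation. Among the genes called higher, 30 had an SM/J effect larger in size than the MA/MyJ effect, and 32 of those called lower did.

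The 2 largest differences were in the macrophage genes Gpnmb and Mmp12, which rose in MA/MyJ and whose SM/J effects did not pass. Gpnmb encodes a membrane glycoprotein that lipid-loaded macrophages make in quantity. Its log2 values in MA/MyJ were 5.11, 5.74, 5.50 and 5.63 in the vehicle animals and 8.52, 10.05, 10.66 and 8.51 in the treated animals. In SM/J they were 5.50, 5.28, 5.53 and 5.56 under vehicle and 6.17, 6.02, 5.99 and 5.98 under treatment. The 4 MA/MyJ treated animals stood alone at the top, and the vehicle groups of the 2 strains overlapped. The effect was 3.94 ± 0.35 (SE) in MA/MyJ and 0.57 ± 0.35 in SM/J, a difference of 3.37 ± 0.50 (limma, adjusted p = 0.00595). Mmp12, the macrophage elastase, had the same pattern. It read 4.66, 4.80, 4.80 and 4.65 in MA/MyJ vehicle animals and 7.86, 8.16, 9.04 and 7.21 in MA/MyJ treated animals. The SM/J values were 4.86, 4.95, 4.89 and 4.95 under vehicle and 5.46, 4.96, 5.19 and 5.23 under treatment. No MA/MyJ treated animal came near any other group. The difference in effect was 3.04 ± 0.35 (limma, adjusted p = 0.00102), from 3.34 in MA/MyJ and 0.30 in SM/J. Both genes entered the test through the MA/MyJ treated animals alone. Their other 12 arrays read at most 6.17 and 5.46, below the 6.49 required of a bright array, so the levels there are dim and the size of the difference is uncertain. With no filter on low values the adjusted p was 0.00656 for Gpnmb and 0.000927 for Mmp12 (limma).

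The promoters of both genes are shown because their differences in drug effect were the 2 largest. They are the 150 bases before the start of each gene, from the RefSeq table of GRCm38.p6, read 5′ to 3′ on the gene's strand, Gpnmb at chr6:49036368-49036517 (+ strand) and Mmp12, by the first of its 2 listed starts, at chr9:7344247-7344396 (+ strand). No capitals are marked, since neither window shown holds any of the 3 motifs searched on both strands: CACGTG, the E-box read by CLOCK and ARNTL, CATGTG, a form read by the MITF and TFE factors, and AGGTCA, the half-site read by nuclear receptors such as REV-ERB alpha. No site can match more than 1 of them. The window before the second Mmp12 start, not shown, holds CATGTG 83 and AGGTCA 99 bases before that start, both on the other strand.
Gpnmb: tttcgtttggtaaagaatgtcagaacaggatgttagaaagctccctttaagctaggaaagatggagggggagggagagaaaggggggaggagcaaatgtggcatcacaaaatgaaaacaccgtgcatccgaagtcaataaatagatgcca
Mmp12: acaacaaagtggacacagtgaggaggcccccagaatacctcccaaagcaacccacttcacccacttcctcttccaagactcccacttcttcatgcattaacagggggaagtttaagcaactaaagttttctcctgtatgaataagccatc
Within 250 bases before the start, CACGTG occurred in 6.86% of 27025 genes with a promoter in the table, CATGTG in 13.8% and AGGTCA in 15.8%. Among the genes called higher, 63 had a promoter there, and 8, 10 and 14 of them held these motifs. Among the genes called lower, 42 had one, and 7, 4 and 4 held them. A match describes letters in this window and no binding.

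Lpl, Clec7a and Lgals3 came next among the macrophage genes. Of the genes called, the clock genes Cry1 and Nr1d1, given below, lay ahead of these in size. Lpl, the lipase that frees fatty acids from circulating triglyceride, is made by macrophages and only weakly by adult hepatocytes. Its MA/MyJ values were 9.45, 9.85, 9.54 and 9.47 under vehicle and 11.48, 10.92, 11.62 and 11.56 under treatment, and its SM/J values were 10.50, 10.18, 9.76 and 10.51 against 9.61, 10.05, 10.05 and 10.33. The SM/J groups overlapped while every MA/MyJ treated animal lay above all others. The drug effect was 1.82 in MA/MyJ and -0.23 in SM/J, a difference of 2.05 ± 0.27 (limma, adjusted p = 0.00263). Clec7a, the beta-glucan receptor Dectin-1 of myeloid cells, read 8.40, 9.06, 8.42 and 8.40 in MA/MyJ vehicle and 10.84, 11.24, 11.75 and 10.90 in MA/MyJ treated animals. It read 8.22, 8.29, 8.48 and 8.16 in SM/J vehicle and 9.16, 8.75, 8.80 and 8.77 in SM/J treated animals. Treated SM/J animals thus lay above their own vehicle animals, yet far below treated MA/MyJ animals. The effects were 2.62 and 0.58, a difference of 2.03 ± 0.26 (limma, adjusted p = 0.00263), and the SM/J effect missed its threshold (adjusted p = 0.0719).

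Lgals3, the lectin galectin-3 of activated macrophages, rose in both strains and further in MA/MyJ. Its values went from 7.27, 7.74, 7.27 and 7.02 to 10.18, 10.75, 11.37 and 10.03 in MA/MyJ and from 7.43, 7.38, 8.04 and 7.56 to 9.22, 8.46, 8.69 and 9.22 in SM/J. The vehicle groups overlapped and the 2 treated groups did not. The effects were 3.26 ± 0.26 and 1.30 ± 0.26, and the difference of 1.96 ± 0.37 passed (limma, adjusted p = 0.0226), though not without SM/J vehicle animal 3, the highest of its group. Anxa5 and Cd68 rose in both strains by amounts that did not differ by test. Anxa5, which binds exposed phosphatidylserine, rose by 1.81 ± 0.21 and 1.45 ± 0.21, a difference of 0.35 ± 0.30 (limma, adjusted p = 0.630). Cd68, a lysosomal glycoprotein used as a macrophage marker, went from 6.72, 6.46, 6.68 and 6.68 to 8.66, 9.34, 9.87 and 8.96 in MA/MyJ. In SM/J it went from 7.19, 7.16, 7.78 and 7.27 to 9.38, 8.83, 9.18 and 8.44. The treated groups overlapped, so that the 2 strains reached like levels of Cd68 from a lower vehicle level in MA/MyJ (-0.72, limma, adjusted p = 0.0316). The rise was 2.57 ± 0.23 in MA/MyJ and 1.61 ± 0.23 in SM/J, a difference of 0.97 ± 0.33 (limma, adjusted p = 0.171). Cd68 did not part the strains at this threshold, whereas Gpnmb and Mmp12 did.

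**Figure D2:**
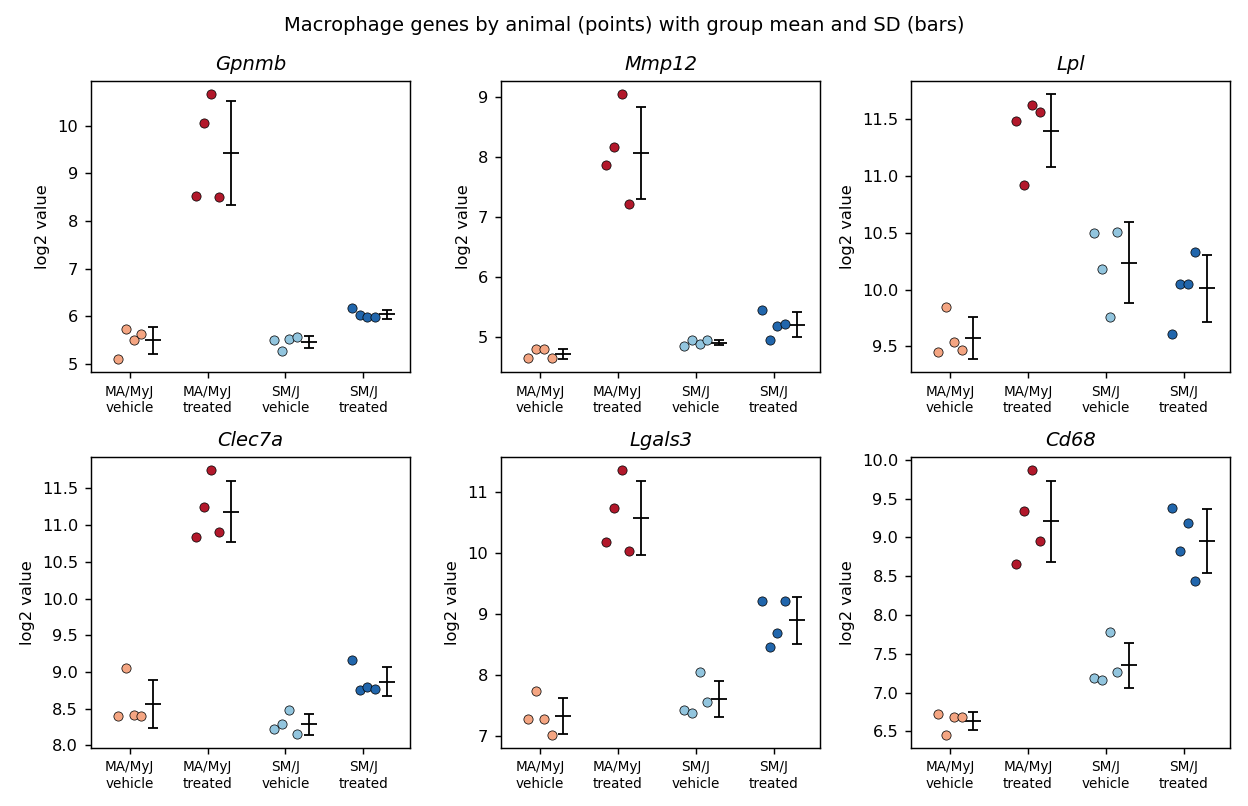
Log2 value (y axis) of 6 macrophage genes in each of the 16 animals, by group (x axis), 4 points a group, with group mean and SD beside them. For Gpnmb, Mmp12, Lpl, Clec7a and Lgals3 the 4 MA/MyJ treated animals lie above every other animal, and for Cd68 the treated animals of both strains lie at like levels.

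Other receptors and transporters of myeloid cells rose in MA/MyJ. Tlr13, an endosomal sensor of bacterial ribosomal RNA, read 5.27, 5.86, 5.89 and 5.64 under vehicle and 6.95, 7.31, 7.55 and 7.42 under treatment in MA/MyJ, and all 8 SM/J animals lay between 5.69 and 6.32. The difference in effect was 1.56 ± 0.22 (limma, adjusted p = 0.00444). Tlr13 too entered the test through the MA/MyJ treated animals alone, with the other 12 arrays at 6.32 or below, and with no filter its adjusted p was 0.00483 (limma). Of the 130 called genes, these 3 were admitted by 1 group only. Slc15a3, a lysosomal transporter of histidine and small peptides, rose by 1.76 in MA/MyJ against 0.32 in SM/J (difference 1.45 ± 0.26, limma, adjusted p = 0.0183). Its vehicle groups overlapped. Tlr12, a partner of Tlr11 in sensing profilin, differed between strains at every level. It read 8.07, 7.97, 7.28 and 8.10 in MA/MyJ vehicle animals, 9.46, 9.18, 9.32 and 9.10 in MA/MyJ treated animals, and 5.60 to 6.08 in all SM/J animals. The SM/J values are low on this array, and whether the transcript is scarce there or the probes match it poorly cannot be told apart. The difference in effect was 1.31 ± 0.21 (limma, adjusted p = 0.00965). Cd53, a tetraspanin of leukocytes, differed by 1.38 ± 0.29 (limma, adjusted p = 0.0327), a call lost without any one of 8 animals. P2ry14, a receptor for UDP-glucose, differed by 1.09 ± 0.23 (limma, adjusted p = 0.0379), a call lost without any one of 10 animals. A further 3 genes of myeloid cells were picked out after their values were seen. Ly86, the MD-1 partner of the receptor RP105, differed by 0.99, Pilra, an inhibitory receptor, by 0.95, and Ifi30, a lysosomal thiol reductase, by 0.73, and all passed. Their calls were lost without any one of 10, 8 and 12 animals, respectively.

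As a group, macrophage transcripts rose more often in MA/MyJ, though few members differed by test. Of 31 tested genes listed for lipid-laden macrophages and phospholipid breakdown, 4 differed, all higher in MA/MyJ (Gpnmb, Mmp12, Lpl and Lgals3), against 0.636% of all genes. The median difference was 0.35 and 23 were positive, beside a median of 0.01 and 52% positive over all tested genes. Gpnmb and Mmp12 entered the test through the MA/MyJ treated animals alone. The list was also chosen with earlier results of these data known, so the count of 4 is a description. The drug raised 15 of the 31 in MA/MyJ and 3 in SM/J, with background shares of 7.44% and 3.78%, and lowered none in either. Members that missed the threshold included Fabp5, a fatty acid carrier (1.82 ± 0.59, adjusted p = 0.157), Pla2g7, a phospholipase of oxidised lipids (1.48 ± 0.37, adjusted p = 0.0700), and Gpr137b, a lysosomal membrane protein (1.08 ± 0.26, adjusted p = 0.0585, all limma). Plin2, the coat protein of lipid droplets, had effects of 0.13 and 0.06, and Abca1, the cholesterol exporter, 0.03 and 0.04. Averaged over the list, MA/MyJ treated animals lay 0.76, 0.93, 1.20 and 0.81 above their vehicle mean and SM/J treated animals 0.36, 0.18, 0.26 and 0.24, without overlap. That mean includes the 4 genes called on this same contrast, and the other members were not averaged apart.

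Markers of Kupffer cells moved along with these genes. Of 19 tested, none differed by test (limma, adjusted p under 0.05), and 16 were positive with a median of 0.68. The drug raised 11 in MA/MyJ and 1, Il18bp, in SM/J, against 7.44% and 3.78% of all genes. C1qb, a subunit of complement C1q, read 8.48, 8.36, 8.54 and 8.30 under vehicle and 9.26, 9.72, 10.34 and 10.05 under treatment in MA/MyJ, against 9.32, 9.01, 9.6 and 9.20 and then 9.67, 9.04, 9.63 and 9.96 in SM/J. MA/MyJ thus rose from a lower start to the level that SM/J had throughout (effects 1.43 and 0.29, difference 1.14 ± 0.30, limma, adjusted p = 0.0799). The scavenger receptor Cd163 differed by 1.08 ± 0.50 (limma, adjusted p = 0.335). Averaged over the 19 tested markers, MA/MyJ treated animals lay 0.42, 0.58, 1.11 and 0.95 from their vehicle mean. SM/J treated animals lay 0.17, -0.08, 0.20 and 0.54 from theirs, so the responses overlapped. Under vehicle, 7 of the 19 markers were lower in MA/MyJ and 1 was higher, against 11.4% and 15.4% of all genes. Over all 20 measured markers, the dim Spic included, the mean level was 8.87 to 9.11 in MA/MyJ vehicle, 9.39 to 10.07 in MA/MyJ treated, 9.32 to 9.64 in SM/J vehicle and 9.33 to 9.94 in SM/J treated animals, so treated animals of the 2 strains overlapped. Clec4f and Timd4, which define Kupffer cells, rose by 0.95 and 1.19 in MA/MyJ (limma, adjusted p = 0.00379 and 0.0237), and their SM/J effects of 0.17 and 0.50 did not pass. Neither difference passed, at 0.78 ± 0.25 and 0.69 ± 0.44 (limma, adjusted p = 0.155 and 0.499). In bulk liver, more cells of a type and more RNA per cell cannot be told apart, and the part of Kupffer cell number in the macrophage genes above was not tested.

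Markers of monocytes and recruited macrophages also leaned higher. Of 16 tested, Clec7a differed, 12 were positive and the median was 0.56. The drug raised 8 in MA/MyJ and none in SM/J, against 7.44% and 3.78% of all genes. The signalling adaptor Tyrobp (1.22 ± 0.28, adjusted p = 0.0534), lysozyme Lyz2 (1.21 ± 0.30, adjusted p = 0.0687) and Fcer1g (1.00 ± 0.24, adjusted p = 0.0618) missed the threshold by limma. Ccr2, the receptor that brings monocytes into tissue, had effects of -0.10 and -0.13, and Cx3cr1, Itgam, Ms4a7, S100a4 and Chil3 were too dim to test. Over the 21 measured markers, these dim ones included, the mean level was 6.87 to 7.19, then 7.32 to 7.97, in MA/MyJ, and 6.96 to 7.06, then 7.03 to 7.30, in SM/J. Averaged over the 16 tested, MA/MyJ treated animals lay 0.45, 0.73, 1.20 and 0.96 above their vehicle mean. SM/J treated animals lay 0.34, 0.07, 0.27 and 0.44 above theirs, so the responses nearly met. Of 6 tested genes for antigen presentation by MHC class II, none differed (limma). H2-Aa rose by 0.93 and H2-Ab1 by 1.12 in MA/MyJ (limma, adjusted p = 0.0445 and 0.0365), and their SM/J effects were 0.29 and 0.49. The response was uneven between animals. Averaged over the 6 genes, MA/MyJ treated animals lay 0.19, 0.14, 0.76 and 1.18 from their vehicle mean. SM/J treated animals lay 0.49, -0.03, 0.20 and 0.42 from theirs, with overlap.

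**Figure D3:**
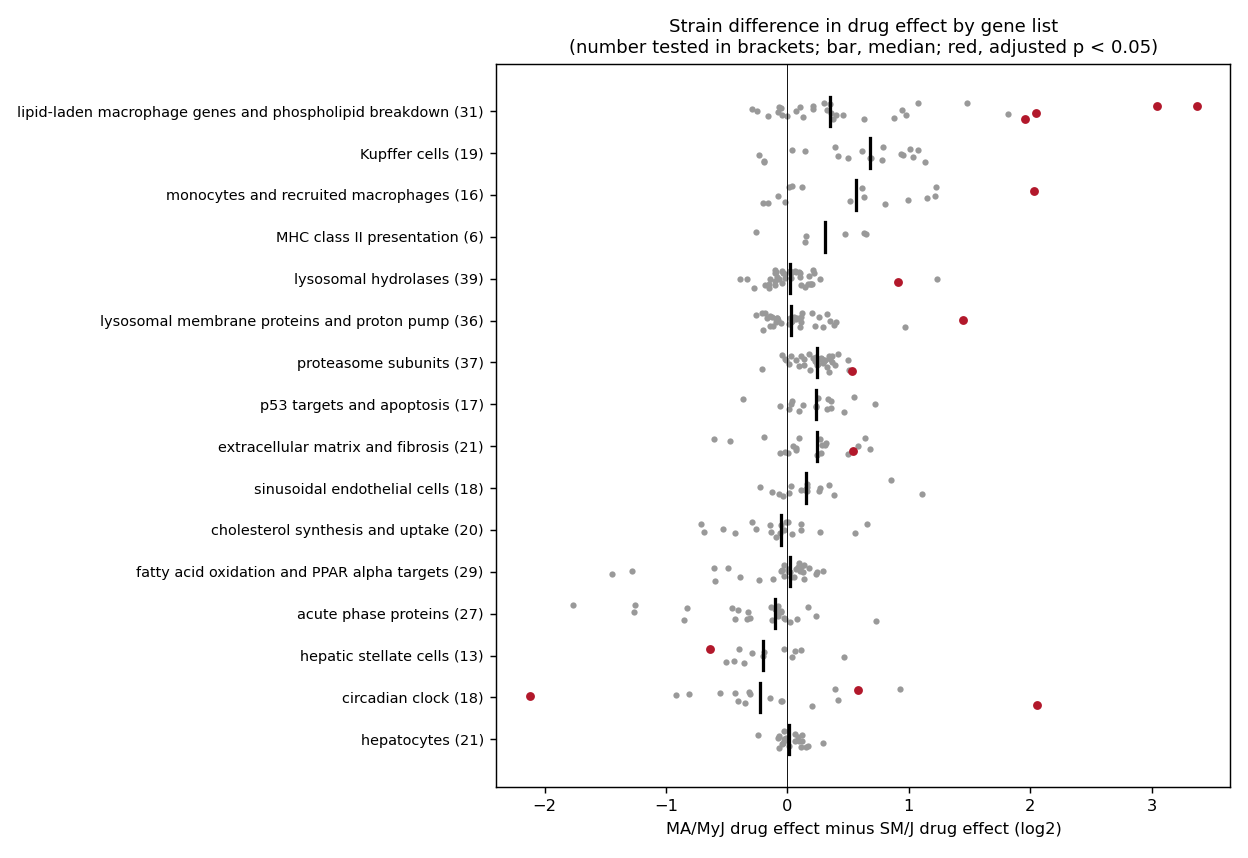
MA/MyJ drug effect minus SM/J drug effect (x axis, log2) for the tested members of 16 gene lists (y axis), each point 1 gene, red where the difference passed and a bar at the median. The 3 macrophage lists sit to the right of 0, proteasome subunits form a narrow group around 0.25, and the clock list holds calls on both sides.

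Lysosomal genes rose in both strains, and few differed between them by test. Of 39 tested hydrolase genes, the drug raised 17 and lowered 3 in MA/MyJ, against 7.44% and 3.54% of all genes. In SM/J it raised 15 and lowered 1, against 3.78% and 2.91%. The median difference was 0.02, and it turned to -0.04 and -0.01 when the arrays were normalised again or centred. Hexa, a subunit of beta-hexosaminidase, was the 1 member that differed. It read 9.02, 9.10, 8.94 and 9.07, then 10.18, 10.55, 10.65 and 10.55, in MA/MyJ, and 10.70, 10.71, 11 and 10.60, then 11.59, 11.41, 11.33 and 10.84, in SM/J. Treated MA/MyJ animals reached only the lower edge of the SM/J vehicle range, where the groups overlapped. The difference in effect was 0.91 ± 0.20 (limma, adjusted p = 0.0379). That call was lost without any one of 11 animals. Of 36 tested membrane proteins and proton pump subunits, 13 rose in MA/MyJ and 6 in SM/J, none fell, and Slc15a3 alone differed. Of 39 genes for autophagy and nutrient sensing at the lysosome, none differed. Rragd, a GTPase of that pathway, had effects of 1.48 and 0.89, and Fnip1, a partner of folliculin, 0.29 and 0.72, with differences of 0.59 ± 0.54 and -0.43 ± 0.17 (limma, adjusted p = 0.652 and 0.235). SM/J treated animal 4 had the smallest mean rise in both lysosomal lists, 0.06 in each, against 0.24 to 0.36 and 0.19 to 0.39 in the other SM/J treated animals.

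The second group with large differences was the circadian clock, where most of the change was in SM/J. CLOCK and ARNTL drive Cry1, Nr1d1 and other genes whose proteins feed back on them, so transcripts cycle over the day. The time of day of dosing and of tissue collection was not given in the sources used here. Cry1, a repressor of that loop, read 8.23, 8.29, 8.56 and 7.94 under vehicle and 7.90, 7.80, 7.61 and 7.30 under treatment in MA/MyJ. In SM/J it read 5.92, 6.33, 6.05 and 6.26 and then 7.51, 7.75, 7.28 and 8.10. SM/J started far lower and rose into the range of the treated MA/MyJ animals. The drug effect was -0.60 ± 0.17 in MA/MyJ and 1.52 ± 0.17 in SM/J, a difference of -2.12 ± 0.25 (limma, adjusted p = 0.00102). The strains differed by 2.12 under vehicle and by -0.01 under treatment (limma, adjusted p = 4.32e-07 and 0.982). Nr1d1, the nuclear receptor REV-ERB alpha and a repressor of Arntl, ran the other way. It read 7.23, 7.14, 7.27 and 6.66, then 8.48, 7.18, 7.10 and 8.04, in MA/MyJ, and 9.24, 9.46, 9.42 and 9.35, then 7.55, 8.48, 8.26 and 7.45, in SM/J. All SM/J treated animals fell below their vehicle group and overlapped the treated MA/MyJ animals. The effects were 0.62 ± 0.28 and -1.43 ± 0.28, a difference of 2.05 ± 0.40 (limma, adjusted p = 0.0240), which missed the threshold without SM/J vehicle animal 2 or 3.

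The promoters of this pair are shown because their transcripts moved in opposite directions. They are the 150 bases before the start in GRCm38.p6 from RefSeq, 5′ to 3′ on the gene's strand, Cry1 at chr10:85185055-85185204 (- strand) and Nr1d1 at chr11:98775378-98775527 (- strand), with the motif CACGTG in capitals.
Cry1: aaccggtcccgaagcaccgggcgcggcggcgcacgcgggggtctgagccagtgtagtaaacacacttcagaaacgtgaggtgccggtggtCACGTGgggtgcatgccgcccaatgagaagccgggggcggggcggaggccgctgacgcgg
Nr1d1: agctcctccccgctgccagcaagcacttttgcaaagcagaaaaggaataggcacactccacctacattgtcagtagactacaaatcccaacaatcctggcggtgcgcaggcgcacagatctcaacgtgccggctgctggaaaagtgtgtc
The Cry1 window holds CACGTG starting 60 bases before the start. The Nr1d1 window shown holds none of the 3 motifs, and CATGTG lies on the other strand 226 bases before its start.

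The rest of the clock list moved less evenly. Of 18 tested genes, Cry1, Nr1d1 and Clock differed, against 1.05% of all genes, 6 were positive and the median was -0.23. Cry1 alone among these calls was kept in every setting tried. Clock fell in SM/J from 9.05, 9.0, 8.98 and 8.84 to 8.27, 8.64, 8.39 and 8.37 and stayed between 9.08 and 9.33 in all MA/MyJ animals. The difference was 0.58 ± 0.12 (limma, adjusted p = 0.0274), lost without any one of 7 animals and with the mean over its 4 probe sets (adjusted p = 0.0762). Arntl, the partner of CLOCK, fell in SM/J by 1.08 (limma, adjusted p = 0.0400), with vehicle animals spread from 6.92 to 8.67, and its difference of 0.92 ± 0.42 did not pass (adjusted p = 0.315). Dbp and Per2, which CLOCK and ARNTL also drive, had effects of -0.16 and 0.16 and of -0.18 and 0.17. Under vehicle, 13 of the 18 genes differed between the strains, 6 higher in MA/MyJ and 7 lower, against 26.8% of all genes.

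**Figure D4:**
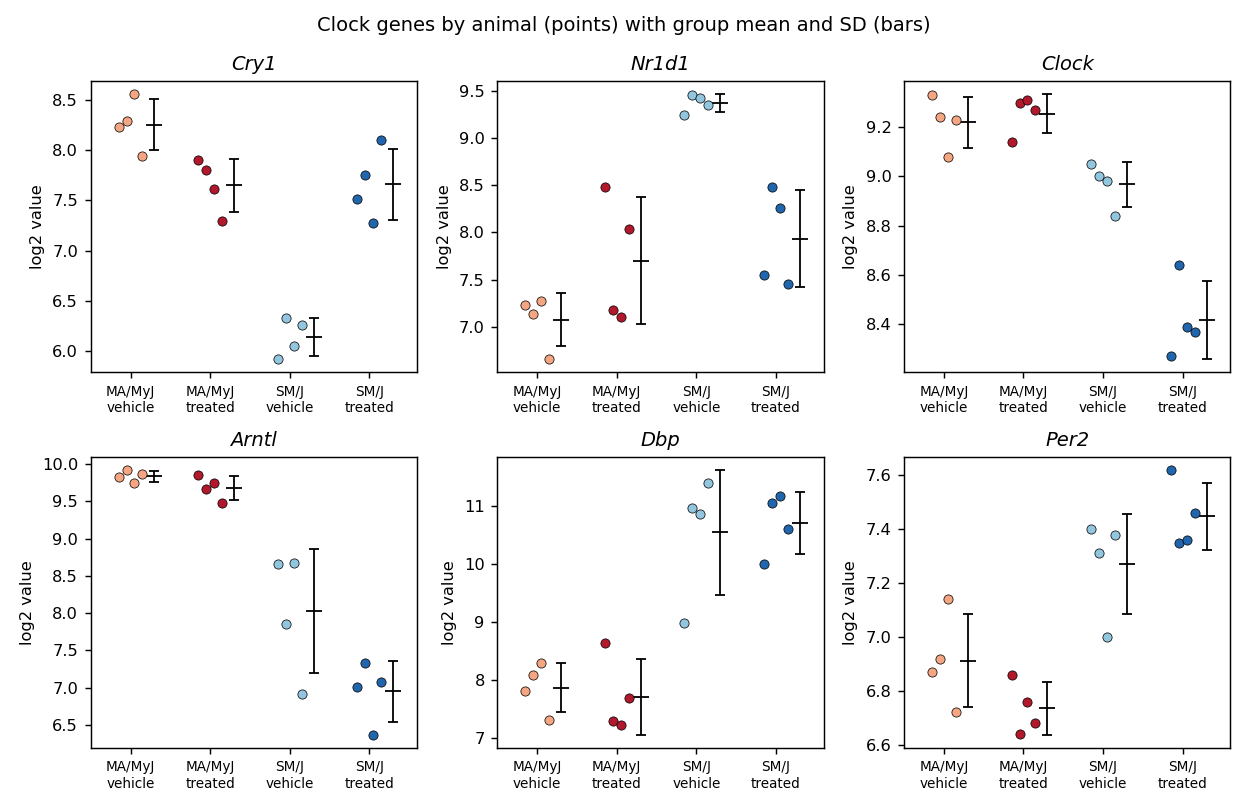
Log2 value (y axis) of 6 clock genes in each of the 16 animals, by group (x axis), 4 points a group, with group mean and SD beside them. Cry1 and Nr1d1 of SM/J treated animals overlap those of MA/MyJ treated animals while the vehicle groups lie apart, and Clock is lowest in SM/J treated animals.

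Trim2 had the smallest p of all tested genes. It encodes a ubiquitin ligase. Its values were 9.87, 9.81, 9.83 and 9.86, then 10.21, 10.32, 10.20 and 10.42, in MA/MyJ, and 10.25, 10.52, 10.27 and 10.16, then 9.53, 9.62, 9.61 and 9.52, in SM/J. It rose in every treated MA/MyJ animal and fell in every treated SM/J animal, with effects of 0.44 ± 0.07 and -0.73 ± 0.07 (difference 1.17 ± 0.11, limma, adjusted p = 9.18e-05). Smo, the signal transducer of the Hedgehog pathway, rose by 0.39 and fell by 0.63, a difference of 1.01 ± 0.14 (limma, adjusted p = 0.00444). The other genes that changed in opposite directions in the 2 strains, besides Cry1, were Sec13, Trmt6, Ccni and Sclt1, whose differences were between 0.53 and 0.63 in size. Of the 7, Ccni and Sclt1 lost the call without any one of 8 and 5 animals, respectively, and the others kept it in each such fit.

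Many genes called higher owed it to a fall in SM/J, among them the proteasome subunit Psmc4. The proteasome degrades proteins marked with ubiquitin. Of 37 tested subunits and assembly factors, the drug lowered 21 in SM/J and 1, Psmd5, in MA/MyJ, and raised none, against 2.91% and 3.54% of all genes. The difference was positive for 33, with a median of 0.25, and passed for Psmc4. Psmc4, an ATPase of the regulatory particle, read 10.92, 10.99, 10.88 and 11.14, then 11.03, 11.20, 11.04 and 10.88, in MA/MyJ. In SM/J it read 11.19, 11.07, 11.16 and 11.08, then 10.61, 10.61, 10.57 and 10.81. Only the SM/J groups were apart, and the effects were 0.06 and -0.47 (difference 0.53 ± 0.11, limma, adjusted p = 0.0338, lost without any one of 12 animals). Averaged over the list, treated animals lay -0.04, 0.00, -0.01 and -0.12 from their vehicle mean in MA/MyJ. The 4 treated SM/J animals lay lower, at -0.32, -0.28, -0.32 and -0.16, with no overlap. In a fit that included 30 arrays, whose count over all genes is given in the last paragraph, 4 subunits differed. Psmc4 lost its call in 15 of 26 alternative settings.

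Other single genes called higher also fell in SM/J. Ggct, which breaks down gamma-glutamyl peptides in glutathione turnover, fell in SM/J from 10.25, 9.96, 9.96 and 9.75 to 9.10, 9.18, 8.79 and 8.70, and MA/MyJ animals lay between 9.28 and 10.35 in both groups. Its difference was 1.29 ± 0.26 (limma, adjusted p = 0.0289), lost without any one of 8 animals, and its probe sets did not all lie on the same side of 0 and their mean missed the threshold (adjusted p = 0.157). Gstm4, a glutathione transferase, fell by 0.80 in SM/J and had an effect of -0.04 in MA/MyJ (difference 0.76 ± 0.13, limma, adjusted p = 0.0131), a call lost in fits on all 31 and on 30 arrays (adjusted p = 0.476 and 0.0784). Hsd3b7, an enzyme of bile acid synthesis, fell by 0.33 in SM/J with 0.11 in MA/MyJ (difference 0.44 ± 0.09, limma, adjusted p = 0.0289), a call lost without any one of 7 animals. Tjp3, a scaffold of tight junctions, fell by 0.86 in SM/J with 0.40 in MA/MyJ (difference 1.27 ± 0.25, limma, adjusted p = 0.0256), lost without any one of 6 animals.

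Gstm2 differed through a rise in MA/MyJ. This glutathione transferase read 6.25, 6.57, 6.86 and 6.49 under vehicle and 7.66, 8.43, 7.94 and 8.00 under treatment in MA/MyJ, and between 9.79 and 10.67 in all SM/J animals. MA/MyJ stayed far below SM/J in both conditions. The difference in effect was 1.75 ± 0.26 (limma, adjusted p = 0.00536). Near-identical transcripts of the Gstm family can share probes, so the gene behind the signal is uncertain. Over the wider lists these were single calls. Of 25 tested genes of the NRF2 response, Gstm4 differed, of 35 genes of drug metabolism under the receptors CAR and PXR, Gstm2, and of 23 genes of bile acid synthesis and transport, Hsd3b7. Their list medians were 0.04, -0.01 and 0.05.

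Most genes called lower in MA/MyJ rose in SM/J. Nrg4, a growth factor that signals through ErbB4, read 7.65, 7.47, 7.37 and 7.67, then 7.21, 8.23, 7.49 and 7.54, in MA/MyJ, and 6.08, 5.73, 5.71 and 6.34, then 7.72, 7.5, 7.08 and 7.82, in SM/J. Treated SM/J animals reached the MA/MyJ level, which the drug did not move by test. The difference was -1.49 ± 0.29 (limma, adjusted p = 0.0240), lost without any one of 4 animals. Lonrf1, a protein with RING domains, went from 7.74, 8.38, 8.51 and 8.49 to 9.70, 9.14, 9.64 and 9.40 in SM/J, and MA/MyJ animals ranged from 8.05 to 8.83. The difference was -1.48 ± 0.28 (limma, adjusted p = 0.0226). Itih5, a hyaluronan-binding protein of the matrix, rose in SM/J from between 7.55 and 7.89 to between 8.71 and 9.40, and lay between 4.12 and 4.51 in all MA/MyJ animals. At that low level a rise in MA/MyJ may escape the array, and probe match and transcript level cannot be told apart. Its difference was -1.22 ± 0.18 (limma, adjusted p = 0.00595).

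Abca8a, a lipid transporter of the ABC family, rose by 1.04 in SM/J with -0.36 in MA/MyJ (difference -1.39 ± 0.26, limma, adjusted p = 0.0226), lost without MA/MyJ vehicle animal 1 or MA/MyJ treated animal 3. Bmper, a regulator of bone morphogenetic proteins, rose by 0.99 with -0.30 (difference -1.29 ± 0.26, limma, adjusted p = 0.0256), a call lost without any one of 6 animals. Nmrk1, a kinase that makes nicotinamide mononucleotide, rose by 1.07 in SM/J with 0.00 in MA/MyJ. Slc6a9, a glycine transporter, rose by 0.79 with -0.25, and the muscle and stellate cell protein Csrp2 by 0.87 with -0.03. Tspan4, Dsc2 and Tgm1 had the same form, with SM/J effects of 0.76 to 0.88 and MA/MyJ effects of -0.35 to -0.20. Among these, Slc6a9, Csrp2 and Dsc2 were called in every setting tried, while Nmrk1, Tspan4 and Tgm1 lost the call without any one of 7, 9 and 11 animals.

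A smaller group of genes fell in MA/MyJ. Tcf24, a basic helix-loop-helix factor, read 9.05, 9.19, 9.37 and 9.37 under vehicle and 7.48, 7.25, 7.53 and 7.17 under treatment in MA/MyJ, against 7.25, 6.57, 6.88 and 6.59 and then 6.88, 6.45, 6.0 and 6.35 in SM/J. Treated MA/MyJ animals fell to the top of the SM/J vehicle range or just above it and stayed above treated SM/J animals. The effects were -1.89 ± 0.17 and -0.41 ± 0.17, a difference of -1.48 ± 0.24 (limma, adjusted p = 0.00965). Spc25, part of the kinetochore complex NDC80, fell by 0.74 with 0.22 in SM/J. Its difference of -0.95 became -0.36 with the mean over its probe sets (limma, adjusted p = 0.153), and the call was also lost in fits on 31 and 30 arrays. Slc17a2, a phosphate transporter, fell by 0.78 with 0.18. Slc17a2 lost its call without any one of 13 animals.

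Vehicle levels often already differed where responses did. Under vehicle, 3324 of the 12420 genes differed between the strains (26.8%). Of the 79 genes called higher, 32 were lower in MA/MyJ under vehicle and 11 were higher. Of the 51 called lower, 35 were higher in MA/MyJ under vehicle and 4 were lower. Both measures use the same vehicle animals, so these counts are a description. Under treatment 26.6% of all genes differed, 16.7% higher in MA/MyJ and 9.83% lower. Of the 79, 55 were higher in MA/MyJ and 6 lower, and of the 51, 25 were lower and 3 higher. The calls rest on these treated animals too, so these counts are also a description.

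Other lists held few or no calls. Of 27 acute phase genes, which the liver secretes in inflammation, none differed (limma), 22 were negative and the median was -0.10. The drug raised none of them in MA/MyJ and 4 in SM/J, against 7.44% and 3.78% of all genes, and lowered none. Orm2, a plasma glycoprotein of that group, read 9.10, 9.98, 10.20 and 9.18, then 9.91, 9.48, 8.75 and 9.48, in MA/MyJ, and 8.50, 9.29, 9.80 and 9.34, then 11.47, 10.75, 10.04 and 10.90, in SM/J. All treated SM/J animals exceeded their vehicle group, and the difference was -1.77 ± 0.48 (limma, adjusted p = 0.0884, and 0.0459 in a fit on 30 arrays). Saa1 differed by -1.27 ± 0.86 (limma, adjusted p = 0.528), with MA/MyJ vehicle animals spread from 10.71 to 13.31. Of 20 genes of cholesterol synthesis and uptake, none differed (limma). The drug raised 3 in MA/MyJ and 2 in SM/J, against 7.44% and 3.78% of all genes. SM/J treated animals were uneven there, with list means 1.48, 0.33, 0.73 and -0.16 above vehicle, against 0.49, 0.40, 0.58 and 0.57 in MA/MyJ. Sqle and Fdft1, consecutive enzymes of squalene, differed by -0.72 ± 0.83 and -0.68 ± 0.29 (limma, adjusted p = 0.739 and 0.282).

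Of 17 p53 targets and apoptosis genes, none differed (limma), 15 were positive and the median was 0.24. The drug raised 5 in MA/MyJ and lowered 1, Ccng1, in SM/J, against 7.44% raised and 2.91% lowered of all genes. Cdkn1a and Sesn1 differed by 0.72 ± 0.55 and 0.55 ± 0.18 (limma, adjusted p = 0.580 and 0.151). Of 21 matrix genes, Col1a2, a chain of type I collagen, differed by 0.54 ± 0.11 (limma, adjusted p = 0.0327), from 0.57 in MA/MyJ and 0.03 in SM/J, a call lost without any one of 10 animals. Of the matrix genes, 6 rose in MA/MyJ and 1 in SM/J, against 7.44% and 3.78% of all genes. Of 13 stellate cell markers, Hhip, a Hedgehog-binding protein, differed by -0.64 ± 0.14 (limma, adjusted p = 0.0441), lost without any one of 13 animals, and the list's median was -0.20. Of 18 sinusoidal endothelial markers, none differed (limma), and 4 fell and 2 rose in MA/MyJ, against 3.54% and 7.44% of all genes, while 5 fell in SM/J, against 2.91%. Their mean level was 8.99 to 9.28, then 8.69 to 9.21, in MA/MyJ and 8.74 to 9.12, then 8.20 to 8.75, in SM/J. Lyve1 and Stab2, receptors of these cells, differed by 1.11 ± 0.39 and 0.86 ± 0.24 (limma, adjusted p = 0.188 and 0.0939).

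Of 16 heat shock genes, Dnaja2, a co-chaperone of Hsp70, differed by -0.40 ± 0.08 (limma, adjusted p = 0.0240), a call lost without any one of 5 animals and with the mean over its 4 probe sets (adjusted p = 0.371). Of 6 dendritic cell markers, Cd209a differed by -0.50 ± 0.09 (limma, adjusted p = 0.0183) at levels between 6.04 and 6.57. No member of the remaining lists differed by limma. They were interferon response (35 tested), unfolded protein response (37), fatty acid synthesis (24), fatty acid oxidation (29), glucose and glycogen (21), steroid and sex-biased genes (23), inflammatory cytokines (19) and cell cycle (15), and the markers of neutrophils (7), T cells (3), B and plasma cells (7), NK cells (5), cholangiocytes (5), erythroid cells (6) and hepatocytes (21). Their medians lay between -0.18 and 0.10. Ccnd1, a cyclin of the G1 phase, was among them, with effects of 2.03 and 0.55 and a difference of 1.48 ± 0.51 (limma, adjusted p = 0.174). Over all 12420 genes, 1809 had an unadjusted p under 0.05.

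The other strains give the same measure outside the fit: NZW/LacJ, coded for vacuolation and necrosis, and WSB/EiJ, coded for neither, under the same dosing, with 4 animals a group and 3 in treated WSB/EiJ. The NZW/LacJ effect exceeded the WSB/EiJ effect for 54 of the 79 genes called higher, or 60 without the array in doubt, beside 50.6% and 50.3% of all tested genes. It was below for 28 of the 51 called lower, or 31, beside 49.4% and 49.7%. The genes called higher therefore kept their order between coded and uncoded strains more often than all genes did, and those called lower less so. No test was made of these counts. Gpnmb had effects of 2.76 in NZW/LacJ and 0.55 in WSB/EiJ (1.15 without the array), and the 4 NZW/LacJ treated animals ranged from 1.22 to 4.07 above their vehicle mean. Mmp12 had 1.68 and 0.51 (0.91), Lpl 0.84 and 0.02 (-0.02), Clec7a 1.22 and 0.57 (0.28), and Lgals3 1.91 and 1.18 (1.26). For these 5 genes, named for their size in MA/MyJ against SM/J, the values were larger in both coded strains than in both others. Other macrophage and myeloid genes were mixed. That order was kept by Tlr12, at 1.15 and 0.62 (-0.13), Tlr13, at 0.96 and 0.81 (0.94), and P2ry14, at 0.33 and 0.05 (-0.01). It was not kept by Cd68, at 1.66 and 2.12 (2.61), Cd53, at 1.03 and 1.13 (1.11), or C1qb, at 0.69 and 1.37 (1.42). Nor was it kept by Cd163, at 0.69 and 0.99 (1.16), or H2-Aa, at 0.32 and 1.11 (1.05). Slc15a3, at 1.04 and 1.01, lost it without the array in doubt (1.05). Cry1 had -1.0 and -0.32 (-0.50), so that SM/J alone had a positive value, and Nr1d1 had -0.27 and 2.32 (2.49). Trim2 had -0.50 and -0.58 (-0.84), so that MA/MyJ alone was positive.

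**Figure D5:**
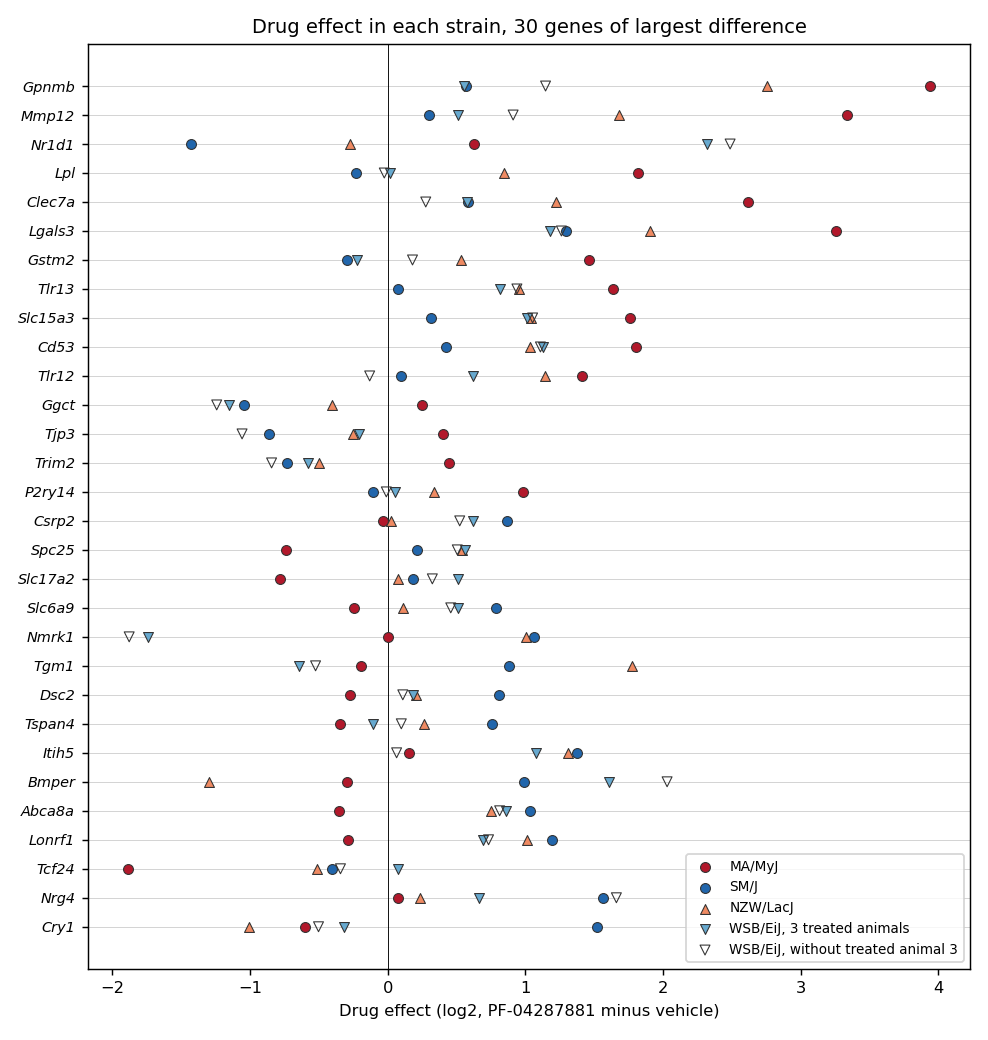
Drug effect (x axis, log2) in each of the 4 strains for the 30 genes of largest difference between MA/MyJ and SM/J (y axis), with WSB/EiJ drawn with and without the array in doubt. Gpnmb, Mmp12, Lpl, Clec7a and Lgals3 are ordered MA/MyJ, then NZW/LacJ, then the other two, and Cry1 and Trim2 each have 1 strain on the other side of 0.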

How the data were processed

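Left liver lobe RNA was measured on single-channel Affymetrix arrays. Deposited values are log2 expression per probe set, made by the authors with Affymetrix Power Tools and RMA, per the submitters' processing notes; RMA corrects background, normalises by quantiles and summarises probes. Versions, scan dates and a genome build are not given in the sources used here.

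Of 44721 probe sets, 34728 had 1 gene symbol, 872 several and 9121 none; 34525 were updated through Entrez numbers. Each of 18147 genes took its probe set of highest mean over all arrays. The 12420 genes above the overall median, 6.49, in at least 4 of the 16 arrays were tested, and 5727 dim genes were not. One mean per group was fitted with limma 3.58.1 (R 4.3.3, data.table, version 1.17.8), with eBayes (3.67 prior and 12 residual degrees of freedom), two-sided tests, Benjamini-Hochberg adjustment over all tested genes and a threshold of 0.05. Errors are model standard errors unless called SD. The procedure was tested on simulated data.

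The p-values measure the spread between animals of these strains. Genes named are the 15 largest calls in each direction without predicted or clone names (4 of the calls had one), the 3 largest of each pattern, the 4 largest calls of each list or, where none passed, its 2 largest as values, and 5 genes known for vacuolation in this series (Cd68, Gpnmb, Mmp12, Lgals3, Anxa5). Any other gene named was picked with its values known. The comparison, the 23 pathway and 12 marker lists and the rule were chosen with earlier results of these data known. Listed genes without a probe set were not used here. The list value per animal is the mean over members of the log2 value, or of that minus the strain's vehicle mean. Promoters were matched by symbol. Alternatives changed the arrays fitted, filter, probe set choice, scaling, eBayes options, array weights and replicate block, and left out each animal. Same-numbered animals did not vary together: of 24 correlations of their deviations between groups, 5 exceeded 0.1 and the median was -0.031.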

Additional observations from a re-analysis of the deposited data

Results flagged for a closer look

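The drug effect differed between MA/MyJ and SM/J in 130 genes by the interaction test. In 7 of them the effect passed in both strains with opposite signs. The differences, MA/MyJ minus SM/J, were 1.17 for Trim2, 1.01 for Smo, 0.63 for Sec13, 0.55 for Trmt6, 0.53 for Ccni, -0.55 for Sclt1 and -2.12 for Cry1.

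Single animals stood apart from the other 3 of their group in 14 of 168 groups examined over the named genes, or 8.33%, where chance gives about 1 in 20. Among higher calls, Clec7a read 9.06 in MA/MyJ vehicle animal 2 (others 8.40 to 8.42) and 9.16 in SM/J treated animal 1 (8.75 to 8.80). Slc15a3 read 8.91 in MA/MyJ treated animal 3 (8.18 to 8.28), Cd53 7.95 in SM/J vehicle animal 3 (7.32 to 7.41), Tlr12 7.28 in MA/MyJ vehicle animal 3 (7.97 to 8.10) and Psmc4 10.81 in SM/J treated animal 4 (10.57 to 10.61). Among lower calls, Lonrf1 read 7.74 in SM/J vehicle animal 1 (8.38 to 8.51), Tgm1 7.75 in the same animal (7.31 to 7.37), Tspan4 10.92 in MA/MyJ treated animal 1 (10.35 to 10.41) and Slc6a9 9.66 in MA/MyJ treated animal 4 (10.11 to 10.16). Nmrk1 read 6.14 (6.83 to 6.93) and Slc17a2 12.7 (12.35 to 12.4) in MA/MyJ vehicle animal 3, and Hhip 6.97 in SM/J treated animal 1 (7.18 to 7.20). Cd68, which was not called, read 6.46 in MA/MyJ vehicle animal 2 (6.68 to 6.72). MA/MyJ vehicle animal 3 held 3 of these values.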

How the results depend on the processing

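For the MA/MyJ drug effect minus SM/J drug effect, all 130 genes kept their direction in every setting in which they were tested, and 14 were called in all of them: Clec7a, Gstm2, Trim2, Smo, Cyp2j6 and Ubxn1 higher, and Cry1, Tcf24, Slc6a9, Dsc2, Csrp2, Arhgap21, Cgrrf1 and Dipk2a lower. A fit on all 31 arrays called 32 genes, 30 of them shared with the 130, and 526, 336 and 2184 for the MA/MyJ drug effect, the SM/J drug effect and the vehicle difference (vehicle MA/MyJ minus vehicle SM/J). Of the genes named here, that fit lost Lpl (adjusted p = 0.0507), Lgals3 (0.147), Slc15a3 (0.107), Tlr12 (0.238), Nr1d1 (0.0742), Clock (0.0944), Itih5 (0.465), Lonrf1 (0.0742), Nrg4 (0.568), Bmper, Cd53, Col1a2, Dnaja2, Gstm4, Hexa, Hhip, Hsd3b7, Nmrk1, Slc17a2, Spc25, Tgm1, Tjp3 and Tspan4. Without the array in doubt that fit called 101, among them neither Lgals3 (0.112) nor Slc15a3 (0.0705). Array weights called 991, 2458 and 2715 for the interaction and both drug effects. With the replicate number as a block, 80 genes were called, 74 of them shared, and Nr1d1 (0.0520), Psmc4 (0.0728), Ggct (0.0592) and Dnaja2 (0.0555) were among those lost. The remaining settings called 88 to 156. Leaving out 1 animal gave 49 to 191 for the interaction, 783 to 1525 in MA/MyJ (783 and 906 without treated animal 3 or 2), 455 to 1074 in SM/J (455 to 522 without any one of vehicle animals 2, 3 and 4 or treated animals 1 and 3) and 2493 to 3435 for the vehicle difference. The highest counts for both drug effects, 1525 in MA/MyJ and 1074 in SM/J, came without SM/J treated animal 4. Dim genes, below the median of all probe sets, were not tested, and 4 animals a group leave small differences undetected.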
